A study of Mus musculus with 6 samples.

Results

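The genes described here are 10 members of the transforming growth factor beta (TGF-beta) pathway: the ligand Tgfb1, the receptors Tgfbr1, Tgfbr2 and Tgfbr3, the signal transducers Smad2, Smad3, Smad4 and Smad7, and the corepressors Ski and Skil. They were picked by gene symbol and role, with earlier results of these data known, and each symbol matched 1 of the 37991 Ensembl gene rows. RNA sequencing counts came from splenic natural killer (NK) cells of mice, sorted as positive for CD27 and for CD11b, a pair of surface proteins found together partway through NK cell maturation. All mice had the C57BL6 background. The 6 libraries were 3 wildtype and 3 Rroid-deficient, Rroid being a long noncoding RNA transcribed from a regulatory element near Id2. The labels give neither the age of the mice, nor the design of the Rroid allele, nor whether each library came from a separate mouse, and a p-value here reflects library-to-library spread alone, which may be technical.

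TGF-beta is secreted in a latent form and, once released, brings a type II receptor (Tgfbr2) and a type I receptor (Tgfbr1) together. The type I receptor then phosphorylates Smad2 and Smad3, which enter the nucleus with Smad4. Smad7 is an inhibitory SMAD induced by the pathway, and Ski and Skil are corepressors that bind the SMADs. In NK cells TGF-beta is known to restrain cytotoxicity and maturation and to favour features of tissue-resident innate lymphoid cells.

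None of the 10 genes passed the test between genotypes over all genes (the quasi-likelihood test of edgeR, with p-values adjusted by Benjamini-Hochberg over 11724 genes). The core of the pathway was present in every library of both genotypes, with Smad3 highest for its length, and 8 of the 10 genes overlapped between genotypes. Over all tested genes, 0.0171% passed and 12.4% did not overlap between genotypes. Tgfbr3 was at 2 counts in all in the deficient libraries and varied widely among the wildtype ones, from 15 to 301 counts. Tgfbr1 was the only member with every deficient library above every wildtype library, and Tgfbr3 the only one with every deficient library below.

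The 6 libraries held 5823626 to 9216430 reads assigned to genes. Values are CPM, read counts divided by a TMM-scaled library size, and a mean carries its SD over the 3 libraries of a genotype (n = 3). A count of 0 allows a level of up to 3 counts, which is 0.322 to 0.489 CPM depending on the library and covers counting error only. Of the genes tested, 5.63% were at 0 in wildtype 1 and 5.57% in deficient 1, against 0.23% to 2.43% in the other 4 libraries. Id2, the gene next to the Rroid element, had 467, 338 and 341 CPM in wildtype, against 38.9, 66.7 and 81.2 CPM in deficient libraries (edgeR adjusted p = 0.0308, and 0.0589 to 0.316 with any 1 library left out). The Rroid transcript itself was not analysed here. The NK cell markers Ncr1, Klrb1c, Nkg7, Eomes, Cd27 and Itgam were detected in all libraries. They summed to 4928 to 5870 CPM in the wildtype and 4567 to 4721 CPM in the deficient libraries, every deficient sum below every wildtype one. Among these markers Klrb1c alone did not overlap (954 to 1051 against 732 to 899 CPM), where 12.4% of all tested genes did not. Cd27 had 348, 249 and 213 CPM in wildtype and 254, 356 and 303 CPM in deficient libraries.

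The promoters of both signalling receptors are shown first, because these genes encode the partners of 1 receptor complex. A further reason was that their mean levels differed in opposite directions between genotypes, uncalled in both cases and with overlapping groups for Tgfbr2. Sequences are RefSeq windows of GRCm38.p6 that run from 250 bases before the annotated start to 50 after it, 5′ to 3′ on the gene's strand. Capitals mark 3 motifs. CANNTG is the E-box, the site of E proteins, which Id2 holds inactive. CAGAC is the core of the SMAD-binding box in many TGF-beta targets, with GTCTG as its form on the other strand. A GC-rich element that SMADs also bind is GGCGC, with the form GCGCC on the other strand. The Tgfbr1 window is chr4:47352972-47353271 (+ strand) and the Tgfbr2 window is chr9:116175314-116175613 (- strand).
Tgfbr1: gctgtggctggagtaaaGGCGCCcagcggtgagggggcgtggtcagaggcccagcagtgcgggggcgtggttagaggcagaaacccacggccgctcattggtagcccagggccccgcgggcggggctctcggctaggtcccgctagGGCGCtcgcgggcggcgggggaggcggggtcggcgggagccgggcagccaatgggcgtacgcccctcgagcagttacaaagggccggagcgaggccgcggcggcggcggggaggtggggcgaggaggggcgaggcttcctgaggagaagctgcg
Tgfbr2: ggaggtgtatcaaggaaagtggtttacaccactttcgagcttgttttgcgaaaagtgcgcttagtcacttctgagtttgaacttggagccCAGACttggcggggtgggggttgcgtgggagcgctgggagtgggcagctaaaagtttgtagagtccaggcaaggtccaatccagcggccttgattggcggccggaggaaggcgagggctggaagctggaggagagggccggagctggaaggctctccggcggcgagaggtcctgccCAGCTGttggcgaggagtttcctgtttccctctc
In the Tgfbr1 window the GC-rich element matched 3 times, with overlapping matches on the 2 strands counted separately, and neither of the other motifs matched. The Tgfbr2 window held 1 E-box and 1 CAGAC core. Among 32851 promoters of the same length, 72.3% held a CANNTG, 49.6% the CAGAC core and 36.9% the GC-rich element, so such matches are common. The E-box form CAGGTG, which reads on the other strand as CACCTG and is found in 20.2% of promoters, matched neither window. RefSeq windows were searched for 5 of the 10 genes. Those of Smad3, Tgfb1 and Ski held no CANNTG and no CAGAC core, and the GC-rich element matched 0, 2 and 7 times. A second annotated start of Tgfbr1 had 1 E-box and 1 CAGAC core. No window of Tgfbr3, Smad2, Smad4, Smad7 or Skil was searched, so whether their promoters hold these motifs was not tested.

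Levels were compared between genes per kilobase (kb) of exon, because CPM grow with transcript length. Over the 6 libraries Smad3 had 40.4 ± 4.61 CPM per kb, and its lowest library, at 35.5, lay above the highest library of Tgfbr2, at 25.8. Tgfbr2 followed with a mean of 18.2 CPM per kb, then Skil with 17.4, Ski with 15.1, Smad4 with 14.0 and Tgfb1 with 10.9. Smad7 had 9.62, Smad2 7.85, Tgfbr1 7.69 and Tgfbr3 1.38 CPM per kb. From Tgfbr2 downwards every gene overlapped in range with the next, so between neighbours only the step from Smad3 to Tgfbr2 exceeded the spread between libraries. Some genes further apart in the order did not overlap. The lowest library of Tgfbr2, at 13.5, lay above the highest of Smad2, at 11.4, and of Tgfbr1, at 9.80. With the length of the longest annotated transcript in place of all exons, Smad3 stayed first (44.0 CPM per kb) and Tgfb1 moved from the sixth to the third place, at 21.3 CPM per kb. Smad3 was thus the more abundant of the receptor-activated SMADs of this pathway, at 40.4 against 7.85 CPM per kb for Smad2.

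**Figure D1:**
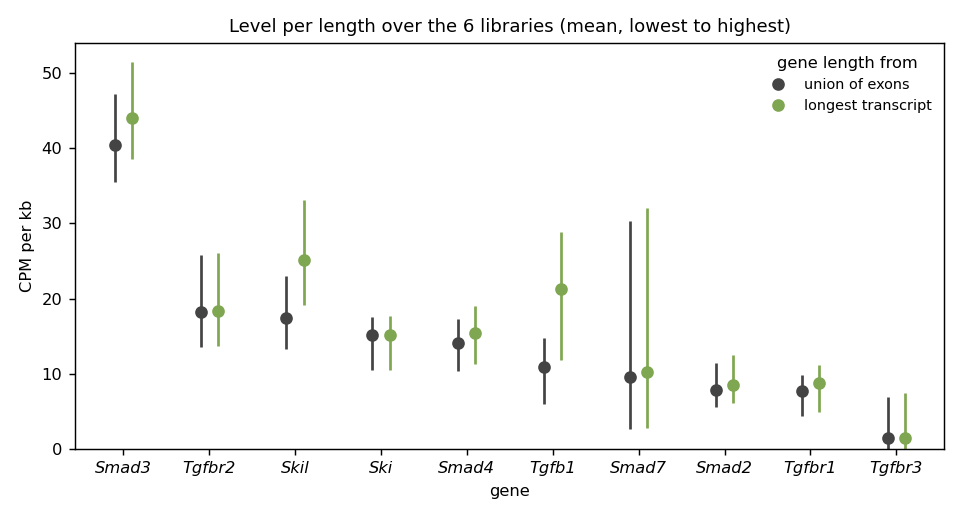
Level per length of the 10 genes. The vertical axis is CPM per kb, dots are means over the 6 libraries and lines run from the lowest to the highest library, with gene length from the union of exons or from the longest transcript. Smad3 lies apart from the other genes under both lengths, and Smad7 and Tgfbr3 have lines that are long relative to their means.

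Tgfb1 encodes the TGF-beta ligand made by most immune cells. It had 70.1, 63.6 and 30.4 CPM in wildtype libraries 1 to 3 and 34.3, 56.4 and 74.3 CPM in deficient libraries 1 to 3. Each genotype thus had libraries at both ends of the range, and the means were 54.7 ± 21.3 and 55.0 ± 20.02 CPM. Deficient over wildtype gave a log2 fold change of 0.01 (SE 0.44, 95% interval -0.97 to 0.99), so that a change of nearly 2-fold in either direction was within the error. Platelets are a rich source of Tgfb1 in blood, and their defining genes Pf4, Ppbp and Treml1 had no count in any library. The 6 platelet and megakaryocyte markers together had 0.449 to 3.30 CPM in the wildtype and 0 to 6.77 CPM in the deficient libraries.

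Tgfbr2, the type II receptor that binds the ligand, was the receptor with the most reads. Wildtype libraries had 211, 170 and 119 CPM and deficient libraries 111, 154 and 127 CPM. The ranges overlapped, with wildtype 1 and 2 above every deficient library and wildtype 3 between them. Its log2 fold change of -0.35 did not pass (SE 0.27, 95% interval -0.96 to 0.25, edgeR adjusted p = 0.925). The log2 fold change was -0.16 without wildtype 1, and -0.05 with wildtype 1 and deficient 1 left out together.

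Tgfbr1, the type I receptor kinase, had 46.3, 28.2 and 43.1 CPM in the wildtype libraries. In the deficient libraries it had 58.2, 61.7 and 64.0 CPM, a narrow range that lay wholly above the wildtype one. The means were 39.2 ± 9.63 and 61.3 ± 2.91 CPM which gave a log2 fold change of 0.65 (SE 0.36, 95% interval -0.16 to 1.45). It did not pass (edgeR adjusted p = 0.925). Groups that do not overlap were found for 12.4% of all tested genes, 6.03% with the deficient libraries higher and 6.33% with them lower, and among the 10 genes for 2, Tgfbr1 and Tgfbr3.

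Tgfbr3 encodes betaglycan, a membrane proteoglycan that binds TGF-beta and presents it to the type II receptor. It was counted 301, 59 and 15 times in wildtype, against 0, 2 and 0 times in the deficient libraries. On the CPM scale the wildtype libraries had 45.1, 6.34 and 2.36, so wildtype 1 alone held most of the reads, and the deficient libraries had 0, 0.326 and 0. No deficient library reached the lowest wildtype one. From the summed counts, 2 against 375, the deficient level was 0.00587 of the wildtype level (exact 95% interval 0.000708 to 0.0214, counting error only), and it was 0.0209 of it (0.00248 to 0.0781) when wildtype 1 was left out. The fitted log2 fold change, -7.23 (SE 1.69), depends on the prior count that the fit adds, and did not pass (edgeR adjusted p = 0.572). DESeq2 on the same genes called Tgfbr3 lower (adjusted p = 0.00123), as did edgeR without a filter on low counts (adjusted p = 5.99e-04). Those runs called 0.557% and 0.495% of all their genes. Tgfbr3 passed the filter through its wildtype libraries alone, so its place among the filtered genes is not independent of its high group. The edgeR adjusted p was 0.999 without wildtype 1 and ran from 0.591 to 0.999 with any 1 library left out, in fits that called no gene at all.

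Stromal and endothelial cells are rich in betaglycan, and their 6 markers (Cdh5, Vwf, Col1a1, Col3a1, Pdgfrb and Pdgfra) summed to 8.24 CPM in wildtype 1 against 0.472 and 0.537 CPM in the other wildtype and 0 to 1.38 CPM in the deficient libraries. Of these 6, 5 had a count in wildtype 1 and 2 had one in each of wildtype 2 and 3, and Cdh5 had 0.15 CPM in wildtype 1 and none elsewhere. Erythroid markers, 3 of them matched, summed to 4.30 to 16.6 CPM in wildtype and 0 to 3.87 CPM in deficient libraries; they were highest in wildtype 1, did not overlap, and were mostly reads of the heme synthesis gene Alas2. The 10 T cell markers summed to 65.8 to 83.0 CPM in wildtype and 222 to 264 CPM in deficient libraries. Cd3d (4.94 to 8.65 against 24.1 to 67.1 CPM), Cd3g (4.62 to 8.34 against 54.8 to 68.2 CPM) and Trbc2 (41.4 to 62.2 against 91.7 to 125 CPM) made up most of that difference, while Cd8a and Cd6 were at 0 in all libraries. Cd3e had 3 counts in wildtype 2 and none elsewhere, Cd5 had 0 to 4 counts, and Cd4 had 57 counts in wildtype 1 and none elsewhere. Trac had 0, 47 and 11 counts in wildtype and 1, 58 and 82 counts in deficient libraries. For Foxp3 the counts were 11, 10 and 36 in wildtype and 43, 88 and 1 in deficient libraries. The part of these markers in the Tgfbr3 values was not tested. Exons of Tgfbr3 overlap those of Gm43422, on the same strand, over 4.54% of their length, while those of the other 9 genes overlap no annotated gene. In these bulk libraries, fewer cells that carry a transcript and less of it per cell cannot be told apart.

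**Figure D2:**
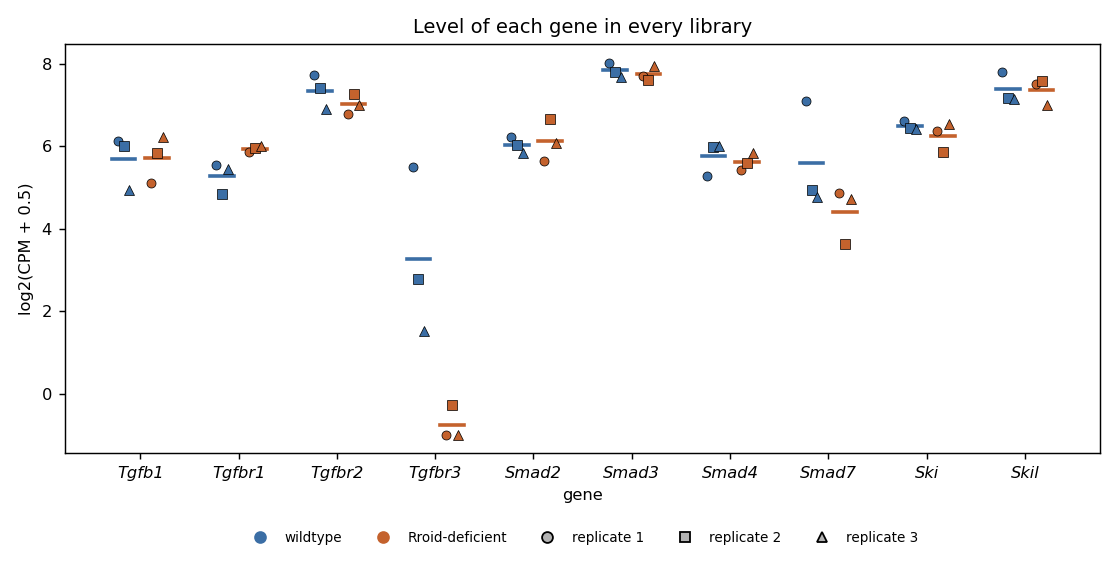
Level of each gene in every library, as log2(CPM + 0.5) on the vertical axis. Points are libraries, coloured by genotype and shaped by replicate, and bars are group means. Wildtype 1 stands above the other wildtype libraries for Tgfbr3 and Smad7, the deficient points of Tgfbr1 sit close together above the wildtype ones, and Smad3 varies little.

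Smad3, a receptor-activated SMAD that binds DNA directly, was the steadiest of the 10 genes. It had 262, 223 and 207 CPM in wildtype and 208, 197 and 246 CPM in deficient libraries, and both ranges covered nearly the same values. Its coefficient of variation over all 6 libraries was 11.4%, where the 5747 tested genes between 20 and 300 CPM had a median of 34.7% and a lower quartile of 23.9%. That range was not matched to the level of Smad3, whose mean of 224 CPM lies near its upper end. Usp9x, at a mean of 228 CPM, had 11.6%, Gzmb, at 295 CPM, 37.4% and Bhlhe40, at 299 CPM, 45.0%. The log2 fold change of -0.09 (SE 0.20, 95% interval -0.54 to 0.37) left room for a change of less than 1.5-fold.

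Smad2, the other receptor-activated SMAD of the pathway, had 75.2, 65.4 and 56.5 CPM in wildtype and 49.3, 100 and 66.9 CPM in deficient libraries. Deficient 1 was the lowest and deficient 2 the highest of all 6. Smad4, the partner shared by all receptor-activated SMADs, had 38.3, 63.4 and 64.2 CPM in wildtype and 42.2, 47.8 and 56.8 CPM in deficient libraries. Here the wildtype group held both the lowest and the highest library. Neither passed, with log2 fold changes of 0.14 (SE 0.35) for Smad2 and -0.18 (SE 0.37) for Smad4.

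Smad7, the inhibitory SMAD that TGF-beta induces as feedback, had 137, 30.5 and 26.7 CPM in wildtype, against 28.5, 11.9 and 25.9 CPM in deficient libraries. Wildtype 1 stood far above the rest, and the other wildtype libraries overlapped the deficient ones. The means were 64.9 ± 62.8 and 22.1 ± 8.93 CPM, and the log2 fold change of -1.55 (SE 0.67) had an edgeR adjusted p of 0.914. Without wildtype 1 the log2 fold change was -0.38, so that the size of the difference rested on that library. Among the 10 genes Smad7 and Tgfbr3 were the 2 with an unadjusted p under 0.05, where 5.29% of all tested genes had one.

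Ski, a corepressor that holds SMAD complexes inactive, had 97.5, 86.9 and 86.0 CPM in wildtype and 82.4, 58.2 and 92.9 CPM in deficient libraries. Deficient 3 lay within the wildtype range and the other 2 below it. Skil, its relative SnoN and itself a TGF-beta target, had 223, 145 and 143 CPM in wildtype and 182, 191 and 129 CPM in deficient libraries. Wildtype 1 was again the highest, and the deficient libraries lay on both sides of wildtype 2 and 3. Their log2 fold changes were -0.21 (SE 0.29) for Ski and -0.02 (SE 0.27) for Skil, and neither passed (edgeR adjusted p = 0.941 and 0.996).

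**Figure D3:**
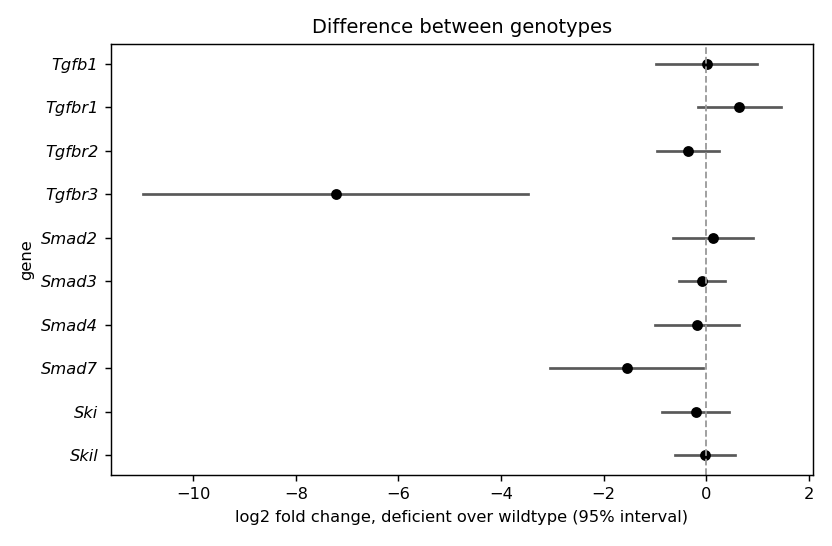
Log2 fold change of deficient over wildtype for the 10 genes, from edgeR, with 95% intervals. The intervals of Tgfbr3 and Smad7 lie below 0 before any adjustment over genes, that of Smad7 only just; the others include 0, and that of Smad3 is the narrowest.

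Counted together, 0 of the 10 genes were called by edgeR, where 0.0171% of all 11724 tested genes were. An unadjusted edgeR p under 0.05 was found for 2 of 10, beside 5.29% of all tested genes. DESeq2 called 1, beside 0.557% of all its genes, and limma-voom 0. Log2 fold changes were above 0 for 3 and below 0 for 7, with a median of -0.13 beside 0.02 over all tested genes. Wildtype 1 was the highest library for 6 of the 10 genes (Tgfbr2, Tgfbr3, Smad3, Smad7, Ski and Skil), and it was the highest library for 25.04% of all tested genes.

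The genes whose levels ran most like those of the leading receptor and the leading SMAD were sought among 5721 other tested genes with a mean of 20 CPM or more, leaving out pseudogenes and genes with a Gm or Rik symbol or without a symbol, by Pearson correlation of log2(CPM + 0.5) over the 6 libraries. For Tgfbr2 they were Rnpepl1 (r = 0.992), Rsrc2 (r = 0.982) and Dop1b (r = 0.98). For Smad3 they were Scarb2 (r = 0.991), Srp9 (r = 0.976) and Socs4 (r = 0.97). These are the extremes of 5721 correlations over 6 points that share their libraries and depth, and they are given as a description. Rnpepl1 ran from 81.0 CPM in wildtype 1 to 35.3 CPM in deficient 1, the same highest and lowest libraries as Tgfbr2.

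Another 103 genes of the pathway were listed by role, of which 67 passed the filter on low counts and 36 did not, 15 of these without a count in any library. None of the 67 was called by edgeR, beside 0.0171% of all tested genes, and 6 had an unadjusted edgeR p under 0.05, beside 5.29%. DESeq2 called 1 (Bmp7), beside 0.557% of all its genes, and limma-voom 0. Log2 fold changes were above 0 for 34 and below 0 for 33, with a median of 0.0011 beside 0.02 over all tested genes. Groups did not overlap for 11 of the 67, 4 with the deficient libraries higher and 7 with them lower, where 12.4% of all tested genes did not overlap.

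Among ligands and genes of ligand latency and activation, 7 of 20 were tested. Nrros, which tethers latent TGF-beta on the cell surface, had 136 ± 37.6 and 157 ± 53.6 CPM in wildtype and deficient libraries. Itgav, the integrin alpha chain of the receptors that release active TGF-beta, had 75.8 ± 42.5 and 122 ± 39.6 CPM. Its usual partners in that reaction, Itgb6 and Itgb8, had 1 count each in all libraries together, and Lrrc32, another tether, had none. Bmp7, a ligand of the related bone morphogenetic protein branch, had no count in any wildtype library and 5.33, 4.24 and 4.84 CPM in the deficient libraries. It was at least 11.6-fold higher in the latter, measured against 3 counts in each wildtype library. Bmp7 did not pass in edgeR (adjusted p = 0.572) and passed narrowly in DESeq2 (adjusted p = 0.0494). It passed the filter on low counts through the deficient libraries alone, so its place among the filtered genes is not independent of its high group.

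Of 11 related receptors 3 were tested: Acvr2a (18.8 ± 12.5 and 34.2 ± 21.1 CPM) and Acvr1b (4.87 ± 4.17 and 10.6 ± 8.90 CPM), which serve activins, and Bmpr2 (24.4 ± 19.8 and 20.7 ± 3.47 CPM), which serves bone morphogenetic proteins. All 3 were at their lowest in wildtype 1. Of the other SMADs, Smad5 (54.8 ± 17.9 and 89.4 ± 37.9 CPM) and Smad1 (15.0 ± 5.62 and 22.0 ± 26.3 CPM), which transduce bone morphogenetic protein signals, were tested, and Smad6 had no count. The groups overlapped for all 5 of these genes.

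Of 22 pathway regulators 18 were tested, with log2 fold changes above 0 for 8 and below 0 for 10. Smurf2, a ubiquitin ligase recruited by Smad7 to the receptors, had 35.1, 106 and 93.0 CPM in wildtype and 100, 145 and 114 CPM in deficient libraries, which overlapped through wildtype 2. Trim33, a ubiquitin ligase that acts on Smad4 and binds Smad2 and Smad3, had 191 ± 27.1 and 149 ± 22.5 CPM, with every deficient library below every wildtype one. Usp9x, a deubiquitinase of Smad4, had 220 ± 29.1 and 235 ± 27.1 CPM.

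Nuclear partners of the SMADs help to open or close chromatin at target genes, and 10 of 11 were tested. The acetyltransferase gene Ep300 had 468 ± 50.3 and 469 ± 32.3 CPM, with a log2 fold change of 0.00 (SE 0.17). The corepressor gene Ncor1 had 581 ± 43.3 and 702 ± 44.5 CPM, with the deficient libraries higher throughout (log2 fold change 0.27, SE 0.15). Sin3a, another corepressor scaffold, had 298, 157 and 172 CPM in wildtype and 90.5, 144 and 153 CPM in deficient libraries, lower throughout. None of the 10 was called.

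Of the 8 genes of signalling without SMADs, all were tested. Tab3, an adaptor of the kinase TAK1, had 81.8, 29.9 and 28.6 CPM in wildtype and 11.4, 12.2 and 23.8 CPM in deficient libraries, below the wildtype ones throughout (log2 fold change -1.56, SE 0.59, edgeR adjusted p = 0.906). Without wildtype 1 its log2 fold change was -0.90, and without wildtype 1 and deficient 1 it was -0.70. Its relative Tab2 had 536 ± 62.2 and 556 ± 192 CPM. The kinase gene Rock1, which acts on the cytoskeleton, had 304 ± 59.5 and 435 ± 52.7 CPM, above the wildtype libraries throughout (log2 fold change 0.52, SE 0.20).

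General target genes of TGF-beta were mostly absent: 5 of 11 were tested, and Tgfbi, Ccn2 and Id1 had no count in any library. Bhlhe40 had 289 ± 112 and 310 ± 181 CPM, Myc had 90.7 ± 23.8 and 74.1 ± 5.25, and Junb had 96.0 ± 69.9 and 65.9 ± 41.1. Cdkn1a, a cell cycle inhibitor, had 25.5, 7.84 and 3.78 CPM in wildtype and 0.144, 4.08 and 1.52 CPM in deficient libraries. These groups overlapped for all 4.

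Of 9 genes that TGF-beta is reported to raise in NK cells and their tissue-resident relatives, 8 were tested. Nt5e, which encodes the ectoenzyme CD73, had 10.2, 13.5 and 9.12 CPM in wildtype and 0.144, 0.653 and 3.73 CPM in deficient libraries, lower throughout (log2 fold change -2.84, SE 1.19, edgeR adjusted p = 0.914). Its log2 fold change was -4.74 without deficient 3 and -3.70 with limma-voom. The tetraspanin gene Cd9 had 38.5 ± 9.97 and 62.9 ± 11.5 CPM, higher throughout. Cxcr6 had 7.43 ± 7.35 and 1.34 ± 1.11 CPM, and the death ligand gene Tnfsf10 had 8.08 ± 3.31 and 15.7 ± 7.52. The 8 genes were thus divided, 3 with log2 fold changes above 0 and 5 below.

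Of 7 genes that TGF-beta is reported to lower in NK cells, 6 were tested, 2 with log2 fold changes above 0 and 4 below. Gzmb, which encodes granzyme B, had 338, 405 and 400 CPM in wildtype and 116, 277 and 233 CPM in deficient libraries, lower throughout (log2 fold change -0.87, SE 0.29, edgeR adjusted p = 0.895). Klrk1, which encodes the activating receptor NKG2D, had 958 ± 165 and 747 ± 25.7 CPM, also lower throughout (log2 fold change -0.36, SE 0.16). The perforin gene Prf1 had 400 ± 48.8 and 376 ± 31.0 CPM, with overlapping groups.

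**Figure D4:**
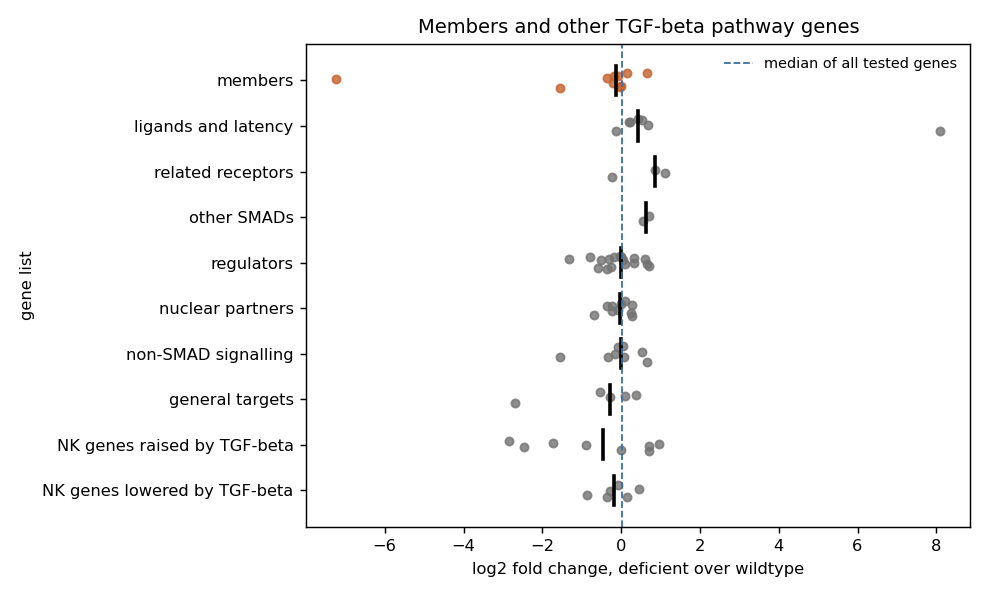
Log2 fold change of deficient over wildtype for the 10 genes and for the tested genes of 9 other pathway lists. Each dot is a gene, black bars are list medians and the dashed line is the median of all tested genes, 0.02. Most dots lie within 1 of that line; the extremes are Tgfbr3 and Bmp7, each with all or nearly all of its reads in 1 genotype.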

How the data were processed

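Per the labels' protocols, the RNA was amplified (Ovation V2 kit) before library preparation and single-read sequencing. HTSeq 0.6.1, TopHat2 2.1.0, Trimmomatic 0.33 and DESeq2 are named, with the builds mm9 and NCBIM37, per the submitters' processing notes. The use of strand in counting was not given in the sources used here. Files the authors deposited hold raw counts per Ensembl gene, 1 file per library with 37991 genes. The 5 closing rows, which name no gene, held 80.0% to 84.4% of reads and were left out. Whole-number counts differed between all libraries of a genotype by more than sampling noise (chi-square statistic over its degrees of freedom, 22.1 or more).

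Symbols (for 32938 genes), lengths and overlaps came from GENCODE M21 (GRCm38), promoters from RefSeq (GRCm38.p6). Since the counts used another build, no coordinates from the counts are printed. Groups follow the sample titles. The test was edgeR 4.0.16 (R 4.3.3) on 11724 genes kept by filterByExpr, with TMM and genotype as the only term, at an adjusted p of 0.05. Figures used matplotlib 3.10.9. Alternatives were RLE and upper-quartile factors, DESeq2 1.42.0, limma-voom (limma 3.58.1), no filter, a stricter filter (10 counts in 3 libraries and a mean of 2 CPM), thresholds of 0.1 and 0.01, a block on replicate number, each library left out, wildtype 1 and deficient 1 left out together, and another gene length.

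The members, gene lists and tests were chosen with earlier results of these data known. Named were all members and, per list, genes called, the 2 tested genes of highest mean CPM and the 2 of smallest p. Genes named beyond this rule were chosen after their values were seen. They had few or no counts, were below the filter on low counts, or are discussed with the receptor ratio and wildtype 1.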

Additional observations from a re-analysis of the deposited data

How the results depend on the processing

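Over the 10 genes and all alternative fits, 127 of 140 log2 fold changes kept their direction and their side of the threshold, 11 changed sign and 2, both of Tgfbr3, passed (-7.46 with DESeq2 and -7.23 without a filter). The number of members called was 1 in those 2 fits and 0 in all others. Genes called over all genes numbered 2 in the fit reported; 65 with DESeq2 (38 higher, 27 lower), 98 without a filter (55 higher, 43 lower), 1 with limma-voom, and 0 at a threshold of 0.01, with wildtype 1 and deficient 1 left out together (767 genes at an unadjusted p under 0.05 in edgeR), with the replicate block (455) and with any 1 library left out (0 to 0; 508 to 966).

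Sign changes among the 10 genes were as follows. Tgfb1 was at -0.0069 with limma-voom and -0.002 without a filter, and ran from -0.29 to 0.25 with 1 library left out. With 1 library left out Smad2 ran from -0.18 to 0.34, Smad3 from -0.19 to 0.0033 and Skil from -0.14 to 0.21, and with wildtype 1 and deficient 1 left out together Smad3 was at 0.039 and Skil at 0.14. Of other named genes, leaving out 1 library gave -0.10 to 0.39 for Nrros, -0.79 to 0.31 for Bmpr2, -1.13 to 1.03 for Smad1, -0.011 to 0.16 for Usp9x, -0.060 to 0.080 for Ep300, -0.27 to 0.20 for Tab2, -0.50 to 0.44 for Bhlhe40 and -1.17 to 0.23 for Junb. Without wildtype 1 and deficient 1, Smad1 was at -1.08, Tab2 at -0.23 and Bhlhe40 at -0.15. With limma-voom Bmpr2 was at 0.44 and Smad1 at -0.17, and with the replicate block 0.36 and -0.11. Upper-quartile factors gave -0.03 for Ep300 and -0.001 for Tab2, and no filter gave -0.009 for Ep300. The cause of these changes was not tested.

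Deviations of same-numbered libraries from their group means correlated at -0.03, -0.01 and -0.03 over 6155 genes. Differently numbered libraries are not set beside them, so these values cannot decide whether the replicate numbers pair the libraries. Wildtype 1 and deficient 1 had the highest shares of tested genes at 0 (5.63% and 5.57%). Id2 kept its direction and lost its call with the replicate block (-2.66), without wildtype 1 and deficient 1 (-2.20), and with any 1 library left out (-2.86 to -2.37). Per longest transcript, Tgfb1 had 21.3 and Skil 25.1 CPM per kb. Depth limits Tgfbr3 and Bmp7, where each library of 1 genotype holds 0 to 2 counts.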

Other observations

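The balance of both signalling receptors was compared after their values were seen. Per kb, Tgfbr2 exceeded Tgfbr1 3.64-fold, 4.81-fold and 2.20-fold in wildtype libraries 1 to 3 and 1.52-fold, 1.99-fold and 1.59-fold in deficient libraries 1 to 3. The ratio does not depend on how libraries are scaled to each other. Every deficient library lay below every wildtype library (3.55 ± 1.31 against 1.70 ± 0.256, n = 3 each). The pair was picked for its opposite directions, so no test is given.

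Several genes known as direct or feedback targets of TGF-beta had their highest value in wildtype 1, where Tgfbr3 and Smad7 were also highest. Ldlrad4, which limits SMAD phosphorylation, had 64.4 CPM there, against 9.02 and 13.1 CPM in the other wildtype and 20.3, 4.24 and 9.96 CPM in the deficient libraries. Pmepa1, a feedback inhibitor that did not pass the filter on low counts, had 18.6 CPM in wildtype 1, against 0.644 and 0.157 CPM in the other wildtype and 4.90, 0.163 and 0.691 CPM in the deficient libraries. Junb had 176 CPM in wildtype 1 and 112 CPM in deficient 1, against 34.4 to 62.5 CPM in the other 4. These genes were chosen after their values were seen, and wildtype 1 was the highest library for 25.04% of all tested genes. Of the general targets and raised NK genes named above, Cdkn1a and Cxcr6 were also highest in wildtype 1. Bhlhe40 was highest in deficient 1, and Nt5e and Myc in wildtype 2. Myc (63.4 CPM), Cd9 (27.6 CPM) and Tnfsf10 (5.09 CPM) had their lowest value in wildtype 1. Among other pathway regulators, Bambi, below the filter, had no count in wildtype 1 and was highest in deficient 3, at 2.90 CPM. Smurf2 was lowest in wildtype 1 (35.1 CPM) and Trim33 was highest there (220 CPM).

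Tnf, also below the filter, had 0, 3 and 3 counts in the wildtype libraries and 89, 7 and 167 counts in the deficient libraries. The difference rested mostly on deficient 1 and 3 (12.8 and 23.1 CPM), with 1.14 CPM in deficient 2. Tnf was chosen after its values were seen, and no test is given.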
